A study of Saccharomyces cerevisiae with 24 samples.

Results

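Before any rapamycin was given, nascent transcripts in the Nab2-AA library carried a spliced intron less often than those in the Control-AA library. This was seen while RNA polymerase II was still close to the end of the intron. The lower values lay mainly in the first 60 nt past the 3' splice site, and the median difference over all genes was close to 0 beyond 100 nt. The 15 genes that were lowest against Control-AA in the first 100 nt still had a median difference of -0.0657 past 100 and up to 200 nt. The comparison rests on 2 of the 24 libraries of the series, 1 per strain, chosen as the anchor-away libraries labelled 0 min. Both libraries listed the same 59 intron-containing genes, and all 59 had enough reads to be used. With 1 library per strain there was no replicate check, so sizes, counting intervals and the spread among libraries of a single strain are given in place of p-values. In the first 100 nt a pair of wild-type libraries of a single genotype differed by a median of -0.103 over 48 genes. The median between the strains was -0.0498 over 59 genes. A difference between strains cannot be told apart here from a difference between libraries.

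An intron can be removed only after the polymerase has copied its 3' splice site, and in budding yeast many introns are removed while the polymerase is still on the gene. In Single Molecule Intron Tracking (SMIT), RNA taken from chromatin is ligated to an adapter at its 3' end, which marks the position of the polymerase, and reads from a gene-specific primer show whether that intron is gone. Nab2 is a nuclear poly(A)-binding protein with roles in the packaging and export of mRNA. In an anchor-away strain, rapamycin bridges an FRB tag on the target and an FKBP12 tag on a ribosomal protein, which pulls the target out of the nucleus.

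Nab2-AA was MATalpha and carried NAB2-FRB::HIS, which tags the NAB2 gene itself. Control-AA was MATa and carried no FRB tag. Both strains had the rapamycin-resistant allele tor1-1, the deletion fpr1Δ::loxP-LEU2-LoxP and the anchor allele RPL13A-2xFKBP12::LoxP-TRP1-LoxP, and both were harvested in log phase in YPAD at 30 C without drug. The mating type differed along with the tag, and the 2 cannot be told apart here. NAB2 and the mating-type genes MATA1 and HMRA1 were not among the 59 genes, so neither the tag nor the mating type could be checked from the reads. As a measure of how far libraries of a single strain differ, the Control-AA libraries taken after 10 and 30 min of rapamycin at 1 ug/ml were used. A pair of wild-type libraries (MATa his3Δ1 leu2Δ0 met15Δ0 ura3Δ0), whose labels carry different run names, was set beside them.

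The 3' end of each transcript was joined to an adapter of 22 nt, shown because every position in these data is read from this junction. Its 5 random bases are in capitals.
3' adapter: NNNNNctgtaggcaccatcaat

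Reads past the 3' splice site numbered 1497682 in Nab2-AA and 1640980 in Control-AA, of which 93.8% and 94.4% were spliced. The gene with the fewest reads had 1249 in Nab2-AA and 1055 in Control-AA. The introns, read from gaps in the deposited long-read alignments of the same series (build sacCer3), spanned 63 to 1002 nt. The reads had been amplified by PCR, and the 10 most-read positions of a gene held a median of 24.1% of its reads in Nab2-AA and 23.3% in Control-AA. All intervals given are 95% intervals for counting error only and are too narrow to the extent that reads are copies of a single molecule.

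The strain difference was small over the whole measured stretch of a gene. The position-averaged fraction spliced, a mean over bins of 30 nt with at least 10 reads in both libraries, was lower in Nab2-AA in 43 genes and higher in 16, with a median difference of -0.00891. A difference past 0.1, the size counted throughout, was reached by 2 of 59 genes in the lower direction (3.39%) and by 1 in the higher (1.69%). SAC6, which codes for the actin-bundling fimbrin, had 0.422 in Nab2-AA and 0.575 in Control-AA, a difference of -0.154 (-0.188 to -0.119). Control-AA at 10 and 30 min had 0.478 and 0.524 in SAC6 over bins shared with its 0 min library, closer to Nab2-AA. NYV1, a vacuolar SNARE, had 0.544 in Nab2-AA and 0.684 in Control-AA, a difference of -0.140 (-0.196 to -0.0838). Its Control-AA values at 10 and 30 min, over bins shared in the same way, were 0.739 and 0.730. RPL2A, which codes for a large-subunit ribosomal protein, was the gene on the higher side, with 0.874 in Nab2-AA and 0.743 in Control-AA. Its difference of 0.131 (0.104 to 0.158) became 0.0485 when the mean of the Control-AA libraries at 0, 10 and 30 min took the place of the 0 min library.

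In the first 100 nt the difference was larger and nearly always in the same direction. The fraction of reads spliced there was lower in Nab2-AA in 50 genes and higher in 9, with a median difference of -0.0498. It was lower by more than 0.1 in 15 of 59 genes (25.4%) and higher by more than 0.1 in none. The gene closest to the limit on the inside was IST1 at -0.116, and on the outside UBC5 at -0.0981. The counting interval of the difference lay below 0 in 42 genes and above 0 in 7.

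**Figure D1:**
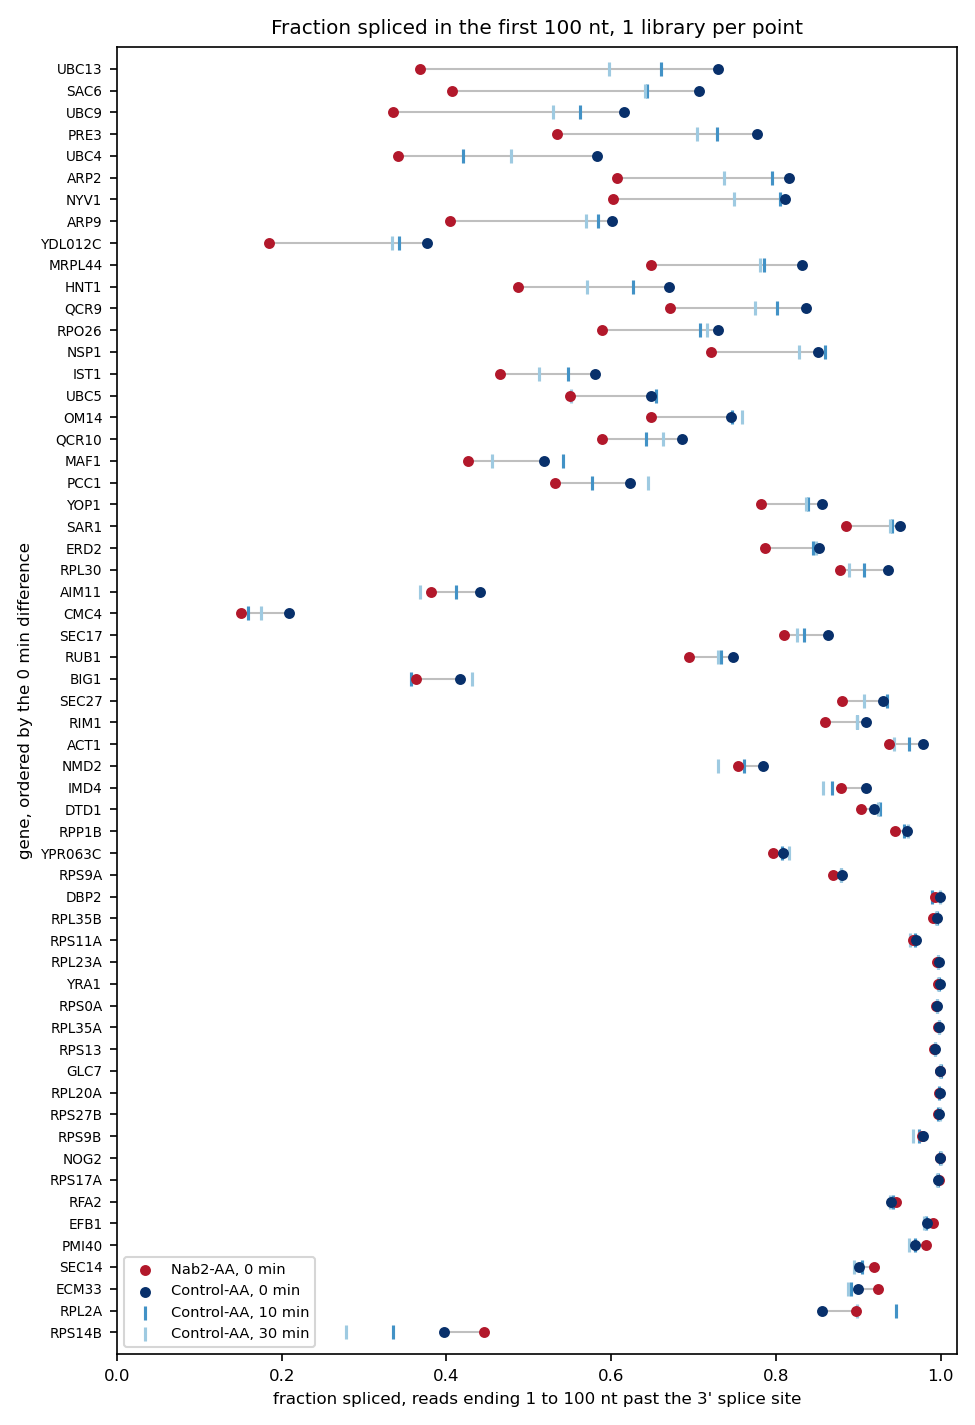
Fraction of reads spliced among those ending 1 to 100 nt past the 3' splice site (x axis, no unit) for each of the 59 genes (y axis, ordered by the 0 min difference), 1 library per point: Nab2-AA at 0 min, Control-AA at 0 min, and Control-AA at 10 and 30 min as ticks. In the upper rows the Nab2-AA point lies left of all Control-AA values, as it did in 42 genes, and most genes in the lower rows sit near 1 in every library.

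The libraries of Control-AA differed less from each other. Nab2-AA lay below every Control-AA library in 42 genes, above every one in 7 and within their range in 10, where 58 genes had a value in all 3 Control-AA libraries. All 15 genes past -0.1 lay below every Control-AA library. The range among Control-AA libraries had a median of 0.0217 and a maximum of 0.162, reached by UBC4, and in 45 genes the strain difference was larger than that range. Within Control-AA, the 10 min library minus the 0 min library had a median of -0.00768 over 59 genes, with 1 gene lower by more than 0.1 (1.69%). The 30 min library minus the 0 min library had -0.0133 over 58 genes, with 3 genes lower by more than 0.1 (5.17%). These comparisons share the Control-AA 0 min library with the strain difference, and that library held the highest of the 3 values in 38 of 58 genes and the lowest in 4. Set against the Control-AA 10 min library, the median strain difference was -0.0240, and against the 30 min library -0.0175. The number of genes lower by more than 0.1 was 15 in both cases.

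The wild-type pair differed more. Replicate 1 minus replicate 2 had a median of -0.103 in the first 100 nt over 48 genes, with 24 genes lower by more than 0.1 (50%). That gap between libraries of a single genotype was larger than the one between the 2 strains, which covers 59 genes. Most genes without a value in both wild-type libraries code for ribosomal proteins, whose median strain difference was -0.00113. The labels of all 6 anchor-away libraries name a single sequencing lane. Nab2-AA lay below both wild-type libraries in 5 of 48 genes, between them in 15 and above both in 28. Control-AA lay below both in 0, between them in 4 and above both in 44. Of the 15 genes past -0.1, 14 had both wild-type values. Among these 14, Nab2-AA lay below both wild-type libraries in 3, between them in 7 and above both in 4. Control-AA lay above both in all 14, and the choice of these genes favours high values in Control-AA.

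The difference shrank with distance. At 1 to 30 nt the median was -0.0944, with 56 of 59 genes lower in Nab2-AA, 28 of them by more than 0.1 (47.5%). At 31 to 60 nt it was -0.0456, with 50 genes lower, 20 of them by more than 0.1 (33.9%). At 61 to 100 nt it was -0.00311, and the counts past 0.1 were 9 lower (15.3%) and 2 higher (3.39%). Past 100 and up to 200 nt the counts were even, at 3 lower and 3 higher (5.08% each), and past 200 up to 400 nt they were 4 lower (6.78%) and 2 higher (3.39%). The 15 genes past -0.1 in the first 100 nt had medians of -0.120, -0.0657 and -0.0283 in these last 3 stretches. Of the 15, 14, 13 and 11 were lower there, beside 39, 36 and 35 of all 59 genes. Their choice rested on the first 100 nt, which includes the first of these stretches. In Control-AA at 1 to 30 nt, 10 minus 0 min had a median of -0.00769 and 30 minus 0 min of -0.0236, with 8 genes lower by more than 0.1 in the second of these (13.8%). The wild-type pair, replicate 1 minus replicate 2, had a median of -0.124 at 1 to 30 nt. There 45 of 48 genes were lower, 30 of them by more than 0.1. Its median was -0.106 at 31 to 60 nt, -0.0725 at 61 to 100 nt, -0.0744 past 100 up to 200 nt and -0.0243 past 200 up to 400 nt. A gap that was largest near the splice site was thus also present between libraries of a single genotype.

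**Figure D2:**
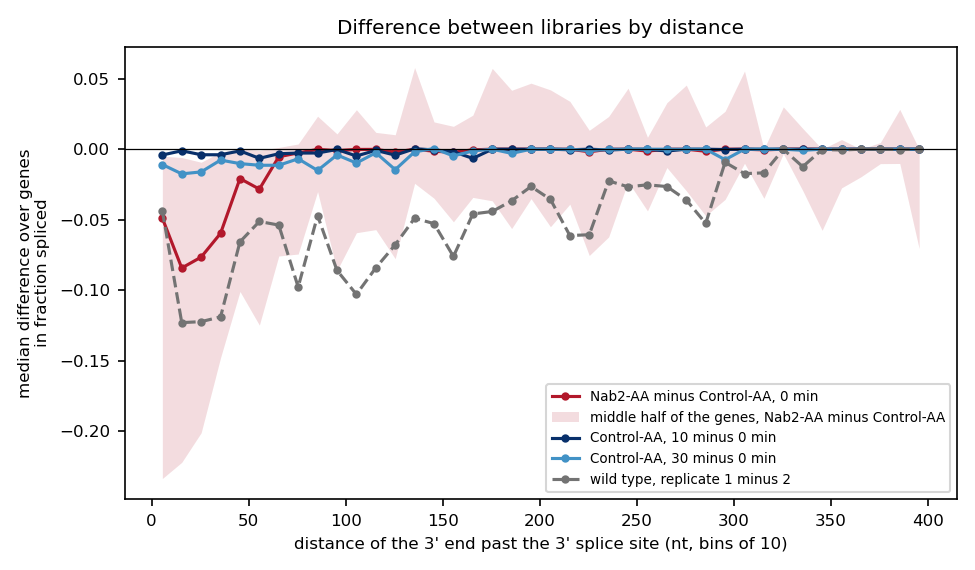
Median over genes of the difference in fraction spliced (y axis, no unit) by distance of the 3' end past the 3' splice site (x axis, nt, bins of 10 nt), for Nab2-AA minus Control-AA at 0 min with its lower to upper quartile as a shaded band, for 2 pairs of Control-AA libraries and for the wild-type pair. The strain difference is -0.0842 at 11 to 20 nt and near 0 from 61 nt on, and the Control-AA pairs stay near 0. The wild-type pair is at -0.123 at 11 to 20 nt and has a median of -0.0243 even past 200 nt.

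**Figure D3:**
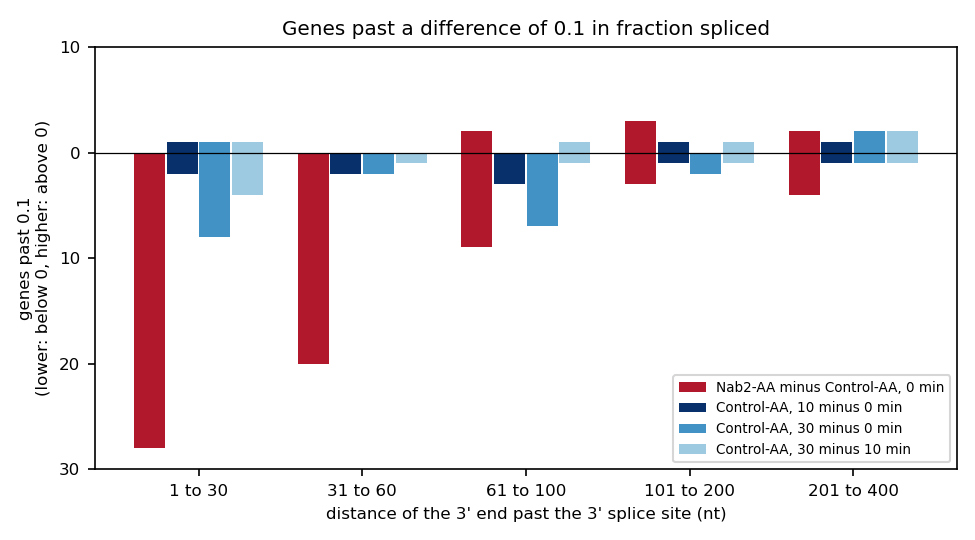
Number of genes (y axis) whose fraction spliced differed by more than 0.1, lower ones drawn below 0 and higher ones above, in 5 stretches past the 3' splice site (x axis, nt), for Nab2-AA minus Control-AA at 0 min and for 3 pairs of Control-AA libraries. The strain comparison has 28 and 20 lower genes in the first 2 stretches and 3 lower with 3 higher in the fourth. The wild-type pair, which is not drawn, had 30 and 25 of 48 genes lower by more than 0.1 in the first 2 stretches.

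Genes of ubiquitin-like conjugation and of the proteasome held 4 of the 15 genes past -0.1, and all 6 measured members of that list were lower in Nab2-AA. Their median difference was -0.242, beside -0.0498 over all 59 genes, of which 50 were lower and 15 (25.4%) passed -0.1. The counts of each list are set against these shares. UBC13, an E2 enzyme that builds ubiquitin chains in DNA damage tolerance, stood furthest apart, with 0.368 in Nab2-AA against 0.729 in Control-AA at 0 min. It had 0.661 and 0.598 in Control-AA at 10 and 30 min, so that Nab2-AA lay well under all of them. The difference was -0.362 (-0.406 to -0.315), and it had the same sign in 10 of 10 bins of 10 nt. The intron of UBC13 is chrIV:629906-630173 on the plus strand, 268 nt long.

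UBC9, the SUMO-conjugating enzyme, had 0.335 in Nab2-AA against 0.615, 0.562 and 0.530 in Control-AA at 0, 10 and 30 min. It was lower in 7 of 10 bins and higher in the first and the last 2. PRE3, a catalytic subunit of the proteasome, had 0.534 in Nab2-AA against 0.777, 0.729 and 0.704 in Control-AA. The gap of PRE3 was widest at 1 to 30 nt, where Nab2-AA had 0.314 and Control-AA 0.729. At 31 to 60 nt PRE3 had 0.582 in Nab2-AA and 0.784 in Control-AA, and at 61 to 100 nt 0.803 in Nab2-AA and 0.820 in Control-AA. Its intron is chrX:435228-435343 on the plus strand.

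UBC4 and UBC5 code for near-identical E2 enzymes of protein quality control, and how reads of the pair were kept apart is not given in the sources used here. UBC4 had 0.341 in Nab2-AA against 0.582, 0.421 and 0.479 in Control-AA at 0, 10 and 30 min. Here the Control-AA libraries themselves spread widely, and the strain difference of -0.241 was -0.0793 when taken against the 10 min library. UBC5 had 0.550 in Nab2-AA against 0.648, 0.654 and 0.552 in Control-AA, so Nab2-AA was level with the lowest of them. RUB1, a ubiquitin-like modifier, had 0.695 in Nab2-AA against 0.748, 0.734 and 0.730 in Control-AA.

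All 4 measured genes listed under the cytoskeleton were lower, with a median of -0.203, beside 50 of 59 genes over all. Of the 4, 3 passed -0.1, beside 25.4% over all, and 1 of these 3 was ARP9, whose product works elsewhere. SAC6 had 0.407 in Nab2-AA against 0.707, 0.643 and 0.641 in Control-AA at 0, 10 and 30 min, lower in 10 of 10 bins. Its difference of -0.300 (-0.322 to -0.277) did not end at 100 nt. Past 100 and up to 200 nt SAC6 had 0.246 in Nab2-AA and 0.370 in Control-AA, and past 200 up to 400 nt 0.343 in Nab2-AA and 0.452 in Control-AA. The intron of SAC6 is chrIV:715248-715358 on the minus strand. ARP2, a subunit of the complex that nucleates branched actin, had 0.607 in Nab2-AA against 0.816, 0.796 and 0.737 in Control-AA. ARP9, an actin-related protein that works in chromatin remodelling and not in the cytoskeleton, had 0.404 in Nab2-AA against 0.601, 0.584 and 0.569 in Control-AA.

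ACT1, actin itself, was spliced in most reads of the window. It had 0.938 in Nab2-AA against 0.978, 0.962 and 0.943 in Control-AA at 0, 10 and 30 min, below all of them by a small margin. Against the 0 min library the difference was -0.0404 (-0.0465 to -0.0344), a log2 odds ratio of spliced to unspliced reads of -1.58, beside -1.60 for PRE3. In ACT1 that size depended on the 0 min library, as Control-AA at 30 min, at 0.943, was close to Nab2-AA. PRE3 stayed further from its 30 min library, with 0.534 in Nab2-AA against 0.704. In the first 10 nt of ACT1 the libraries of a single strain did not match. The fraction there was 0.0581 in Nab2-AA, against 0.0566, 0.828 and 0.758 in Control-AA at 0, 10 and 30 min.

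Of 6 measured mitochondrial genes all were lower, 2 by more than 0.1, with a median of -0.0968. Both counts were near the shares over all genes, 50 of 59 lower and 25.4% past -0.1. MRPL44, a protein of the mitochondrial large ribosomal subunit, had 0.648 in Nab2-AA against 0.832, 0.785 and 0.781 in Control-AA at 0, 10 and 30 min. QCR9, a subunit of the cytochrome bc1 complex, had 0.671 in Nab2-AA against 0.836, 0.801 and 0.775 in Control-AA. Both lay below the whole Control-AA range. OM14, an outer membrane protein, had 0.649 in Nab2-AA against 0.746, 0.747 and 0.759 in Control-AA. It was lower also far from the splice site, with 0.535 in Nab2-AA and 0.734 in Control-AA past 200 up to 400 nt.

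Of 7 measured genes listed under traffic through the endoplasmic reticulum and Golgi, 6 were lower and 2 passed -0.1, near the shares over all genes (50 of 59 and 25.4%), with a median of -0.0660. The 2 were NYV1 and IST1, whose products act at the vacuole and the endosome. NYV1 had 0.603 in Nab2-AA against 0.811, 0.805 and 0.749 in Control-AA, and past 100 up to 200 nt it had 0.459 in Nab2-AA and 0.651 in Control-AA. IST1, a regulator of endosomal sorting, had 0.465 in Nab2-AA against 0.581, 0.547 and 0.512 in Control-AA. SEC17, the cofactor that helps take SNARE complexes apart, had 0.810 in Nab2-AA against 0.863, 0.834 and 0.826 in Control-AA. SEC14, a phospholipid transfer protein, was the exception, with 0.919 in Nab2-AA against 0.9005, 0.904 and 0.895 in Control-AA, above all 3.

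Among 4 measured genes of RNA processing and export all were lower, 1 of them by more than 0.1, again near the shares over all genes (50 of 59 and 25.4%), with a median of -0.0185. NSP1, a nuclear pore protein, had 0.722 in Nab2-AA against 0.851, 0.860 and 0.828 in Control-AA. YRA1, an mRNA export adaptor that regulates splicing of its own transcript, had 0.997 in Nab2-AA against 0.999, 0.998 and 0.997 in Control-AA, a difference that turned to 0.0416 in the mean over bins of 10 nt. That change came from the first 10 nt, where 116 of 131 reads were spliced in Nab2-AA and 7 of 16 in Control-AA at 0 min. No other bin of the window was higher in Nab2-AA. Of the 15 genes past -0.1, 3 belonged to no list. HNT1, a nucleotide hydrolase of the HIT family, had 0.487 in Nab2-AA against 0.670, 0.626 and 0.571 in Control-AA at 0, 10 and 30 min. RPO26, which the RNA polymerases of the nucleus have in common, had 0.589 in Nab2-AA against 0.730, 0.708 and 0.716 in Control-AA. YDL012C had 0.185 in Nab2-AA against 0.377, 0.342 and 0.333 in Control-AA. In the position average RPO26 differed in the other direction, at 0.844 in Nab2-AA and 0.808 in Control-AA. With reads pooled over all positions past the 3' splice site RPO26 was lower again, at 0.707 in Nab2-AA and 0.754 in Control-AA.

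Most of the 15 ribosomal protein genes, RPP1B included, were highly spliced in the first 100 nt, with RPS14B far below the others. Their median fraction was 0.991 in Nab2-AA and 0.993 in Control-AA, 12 were lower in Nab2-AA, and none passed 0.1, beside 25.4% of all genes past -0.1. The median difference was -0.00113, against -0.0660 for the 44 other genes. RPL30, whose protein represses splicing of its own transcript, had the largest lower value of the group, with 0.877 in Nab2-AA against 0.937, 0.907 and 0.889 in Control-AA. On the odds scale the contrast between the groups was smaller, with a median log2 odds ratio of -0.32 for the ribosomal protein genes and -0.69 for the others. A log2 odds ratio below -1 was found in 20 of 59 genes (33.9%), of which 2 code for ribosomal proteins. Some of the 20 rest on few unspliced reads. GLC7 had 5 in Nab2-AA and 2 in Control-AA at 0 min, and DBP2 had 38 and 8, with its fraction in Nab2-AA inside the Control-AA range. The median log2 odds ratio over all genes was -0.631 between the strains and -0.307 for Control-AA at 30 minus 0 min.

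RPS14B, a small-subunit protein gene whose pre-mRNA is bound by its own product, was the least spliced of the ribosomal protein genes and the one furthest above Control-AA. It had 0.445 in Nab2-AA against 0.397, 0.335 and 0.278 in Control-AA at 0, 10 and 30 min, above all of them. The order changed along the gene. At 1 to 30 nt RPS14B had 0.303 in Nab2-AA and 0.379 in Control-AA, while past 100 up to 200 nt it had 0.740 in Nab2-AA and 0.599 in Control-AA. RPL2A had 0.897 in Nab2-AA against 0.856, 0.945 and 0.899 in Control-AA, within the Control-AA range.

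The other genes in which Nab2-AA was above all Control-AA libraries had small differences. ECM33, a cell wall protein anchored to the membrane, had 0.924 in Nab2-AA against 0.899, 0.892 and 0.888 in Control-AA. PMI40, which makes mannose phosphate for glycosylation, had 0.982 in Nab2-AA against 0.969, 0.969 and 0.962 in Control-AA. EFB1, a translation elongation factor whose intron hosts a snoRNA, had 0.991 in Nab2-AA against 0.984, 0.983 and 0.980 in Control-AA. Taken as the mean over bins of 10 nt instead of pooled reads, the difference turned to -0.0190 in ECM33, -0.00275 in PMI40 and -0.000652 in SEC14. RFA2, a subunit of the single-stranded DNA binding protein RPA, differed little in the first 100 nt, at 0.946 in Nab2-AA and 0.940 in Control-AA. Its position average was 0.922 in Nab2-AA and 0.841 in Control-AA at 0 min. Over bins shared with that library, Control-AA at 10 and 30 min had 0.899 and 0.870, closer to Nab2-AA. Of the 3 tRNA-related genes all were lower in the window, beside 50 of 59 genes over all, none by more than 0.1, and 1 of the 3 was lower in the position average. Among them was PCC1 of the KEOPS complex with 0.532 in Nab2-AA against 0.623, 0.577 and 0.644 in Control-AA.

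The size of the difference followed the starting level. In 33 genes Control-AA had a fraction of 0.9 or less in the first 100 nt, and these held all 15 genes past -0.1. In the other 26 genes, 20 were lower in Nab2-AA and the largest loss was -0.0661, in SAR1, the GTPase of COPII vesicles. Across the 59 genes, the Control-AA fraction and the difference had Pearson's r of 0.439 and Spearman's rho of 0.650. The difference contains the Control-AA fraction and genes are not independent replicates, so these values describe the libraries only. With the log2 odds ratio in place of the difference they were 0.0954 and 0.122. Intron length, over 58 genes, had r of 0.461 and rho of 0.533 with the difference, and -0.110 and 0.0164 with the log2 odds ratio. The genes past -0.1 had a median intron of 111 nt, against 140 nt over all.

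The distance at which splicing reached 0.5 was read from bins of 10 nt. It was later in Nab2-AA in 22 genes, earlier in 1 and in the same bin in 36. The first such bin of UBC13 began at 71 nt in Nab2-AA and at 11 nt in Control-AA. For PRE3 it began at 41 nt in Nab2-AA and at 11 nt in Control-AA, and for ARP9 at 71 nt in Nab2-AA and at 21 nt in Control-AA. Between Control-AA libraries, 10 min was later than 0 min in 8 genes and earlier in 4, and 30 min was later in 13 and earlier in 2.

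The 3' ends themselves were spread differently. The share of a gene's reads that ended at 1 to 100 nt had a median of 48.3% in Nab2-AA and 55.4% in Control-AA, was lower in Nab2-AA in 54 genes and higher in 5, and differed by a median of -7.67 percentage points. Control-AA at 30 min minus 0 min gave -3.47 points and at 10 min minus 0 min -1.19, again with a shared library. Spliced reads ending in the window were fewer in Nab2-AA as a share of all reads of the gene, with a median difference of -9.25 points and 55 genes lower. Unspliced reads there differed by a median of 0.283 points, with 42 genes higher in Nab2-AA and 17 lower.

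In the 15 genes past -0.1 both shares moved. Spliced ends were lower in 15 of 15 genes, by a median of -14.6 points, and unspliced ends were higher in 15 of 15, by a median of 8.44 points. The choice of these genes fixed most of that direction, so the counts are a description. UBC13 had 32.2% of its reads unspliced in the window in Nab2-AA and 18.1% in Control-AA, and its spliced share there was 18.7% in Nab2-AA and 48.8% in Control-AA. SAC6 had 36.5% unspliced in Nab2-AA and 19.4% in Control-AA. Whether the different spread of 3' ends had a part in the lower fractions was not tested. Giving every position the same weight, the median difference in the first 100 nt was -0.0508 and 15 genes were lower by more than 0.1.

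**Figure D4:**
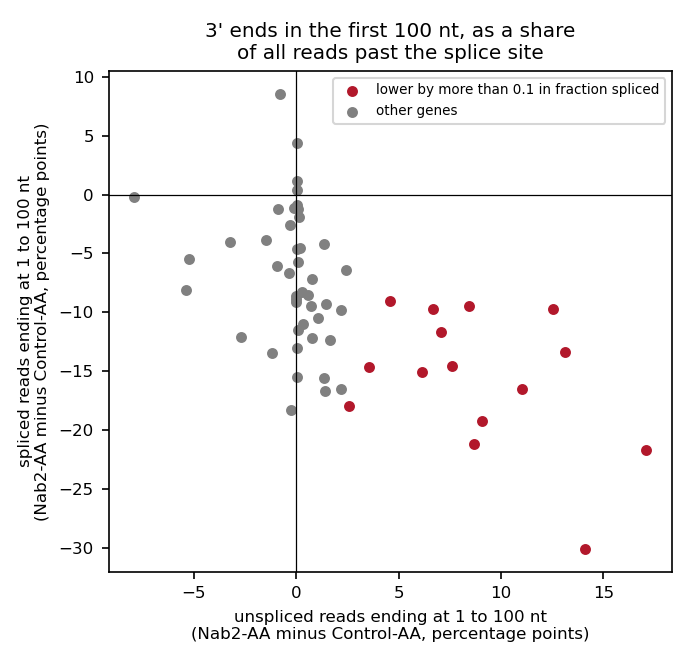
Difference between Nab2-AA and Control-AA at 0 min in the share of a gene's reads that end at 1 to 100 nt, unspliced on the x axis and spliced on the y axis (both in percentage points), 1 point per gene. The 15 genes with a fraction spliced lower by more than 0.1 lie to the right of 0 and below 0, and most of the other 44 genes lie near 0 on the x axis and below 0 on the y axis.

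The same genes differed in either direction between the times of Nab2-AA. Of the 15 genes, Nab2-AA at 0 min was below Nab2-AA at 10 min in 8 and below Nab2-AA at 30 min in 10. Over all genes the counts were 16 of 59 and 19 of 58. The 15 genes were chosen for low values in the 0 min library, which favours later libraries lying above it. SAC6 in Nab2-AA had 0.407 at 0 min, 0.716 at 10 min and 0.771 at 30 min, while UBC9 had 0.335, 0.281 and 0.140. At 10 min the strain difference in the first 100 nt had a median of -0.0867, with 26 of 59 genes lower by more than 0.1 (44.1%), and at 30 min -0.0340, with 19 of 57 (33.3%). Beyond 100 nt, where up to 200 nt the 0 min libraries had 3 genes lower by more than 0.1, the 10 min libraries had 20 (33.9%) and the 30 min libraries 15 (26.3%).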

How the data were processed

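Per the file headers, each SMIT file gives the count of reads at every 3' end position of a gene, which the authors deposited with the fraction of reads spliced there and a corrected fraction. The submitters' processing notes name the build sacCer3 and, without roles, bedtools 2.29.2, SAMtools 1.9, minimap2 2.17, cutadapt 1.9.1 and HISAT2 2.1.0. Removal of PCR copies is not given in the sources used here. The deposited corrected fraction multiplies unspliced reads by a factor per gene and library that grows with intron length, from 1.54 to 1108 in Nab2-AA and from 1.52 to 170 in Control-AA, and was used as an alternative only.

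Spliced reads were the count times the fraction. Genes needed 20 reads past the 3' splice site and positions listed to 200 nt in both libraries. Position averages took 30-nt bins holding 10 reads or more, and the window of 1 to 100 nt pooled all reads. Intervals were exact binomial per library and Newcombe for differences, at 95%. A difference past 0.1, or past 1 in log2 odds ratio with 0.5 added to each count, was counted. Introns came from gaps in the deposited long-read alignments. The CMC4 gap did not match the authors' factor and was left out of correlations with length. Gene names came from RefSeq R64, and 59 of 59 identifiers matched. The pipeline was tested on simulated data. Scripts used matplotlib 3.10.9, SciPy 1.17.1, pandas 2.3.3, numpy 2.4.6 and Python 3.11.15.

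Named genes were the 8 largest differences per direction in position average, the 4 largest per direction in the window, ACT1, the most-read member of each list and paralogs, plus all genes past -0.1 in the window. RPL30, SAR1 and HNT1 among others were added after their values were seen. The libraries compared, the gene lists and the window were chosen with earlier results of these data known.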

Additional observations from a re-analysis of the deposited data

Results flagged for a closer look

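Reads ending upstream of the 3' splice site, which no comparison above uses, were more common in Nab2-AA than in any Control-AA library for RPL23A and ACT1, with the widest gap to the 0 min library. In RPL23A they made up 0.959% of reads in Nab2-AA, against 0.304%, 0.673% and 0.611% in Control-AA at 0, 10 and 30 min. In ACT1 they made up 6.34% in Nab2-AA, against 2.57%, 3.92% and 5.16% in Control-AA. Over all 59 genes the median upstream share ran the other way, at 14.3% in Nab2-AA against 20.96%, 19.9% and 20.5% in Control-AA at 0, 10 and 30 min. Nab2-AA was above every Control-AA library in 13 genes and below every one in 32.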

How the results depend on the processing

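In all, 66 results were recomputed under 647 alternative values, and no difference past 0.1 changed sign. Some smaller ones did, among them RPL2A in the window (0.0414, and -0.0480 against Control-AA at 10 min) and UBC4 in the position average (-0.0645, and 0.0408 against the mean of the Control-AA libraries). The window median was -0.0819 at 1 to 50 nt, -0.0328 at 1 to 150 nt, -0.0304 against the mean of the Control-AA libraries, -0.0240 and -0.0175 against the 10 and 30 min library, and -0.0853 with the authors' factor. Its count past -0.1 was 29 at 1 to 50 nt and 24 with that factor, and 14 to 17 otherwise. Leaving out the first 10 or 20 nt, chosen after seeing the data as were the weighting of positions, the authors' factor in the window and single Control-AA libraries, gave medians of -0.0389 and -0.0343. Of the 15 genes, 15 stayed below 0 and 11 past -0.1 in all 10 settings. The position-averaged median was -0.0385 with the corrected fraction. Its count of lower genes was 4 with 5 or with 50 reads per bin, 10 from pooled reads, 5 corrected, 10 at 1 to 200 nt, 5 with positions weighted alike, 14 past 0.05, 1 past 0.15 and 7 past 1 in log2 odds. Its count of higher genes was 2 corrected, 0 against the mean of the Control-AA libraries, 2 past 0.05, 0 past 0.15 and 3 in log2 odds. Splicing reached the level earlier in 2 genes when the level was scaled to each gene's last 3 bins, and the share of ends differed by -6.08 points at 1 to 200 nt. Apart from changed windows, sizes and reference libraries, the cause was not tested. No paired analysis was possible because each strain had 1 library at 0 min. One library per strain limits the precision, and read number limits it for some genes, such as NYV1, whose counting interval in the position average, -0.196 to -0.0838, crosses -0.1. The share of PCR copies was not measured.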
